A study of Mus musculus with 9 samples.

Results

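The 10 genes described here are core components of Notch signalling, chosen by name from the deposited read counts: the 4 receptors Notch1, Notch2, Notch3 and Notch4, the 4 ligands Jag1, Jag2, Dll1 and Dll4, and the target genes Hey1 and Heyl. They are 10 of 23420 genes counted, and all 10 passed the filter on low counts that left 15635 genes for testing. RNA came from mesenchymal cells of C57BL/6 mice of 3 to 4 weeks, taken from the thymus, from bone (femur, tibia and pelvis) and from truncal skin, with 3 libraries per tissue. Cells of every tissue were sorted as positive for the surface protein SCA1 and negative for lineage antibodies against blood cells, epithelium (EpCAM) and endothelium (CD31), at a minimum of 25000 cells per sample. The labels give no treatment, mutation or transgene in any group. The thymus libraries are labelled 2, 3 and 1-3. The labels do not explain 1-3, which may share material with the other thymus libraries, and they do not say which libraries are from different animals. Each p-value thus reflects the spread between libraries, which may be technical.

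Notch receptors are single-pass membrane proteins that are activated by ligands of the Jagged and Delta-like families on a neighbouring cell. Ligand binding allows cleavage by an ADAM protease and by gamma-secretase, and the released intracellular domain joins the DNA-binding protein RBPJ and a Mastermind coactivator to turn on targets such as the Hes and Hey repressors. In the thymus, Notch1 on lymphoid progenitors directs them to the T cell lineage, and Dll4 on the epithelium is its main ligand. In mesenchymal tissue, NOTCH3 is known for its role in vascular smooth muscle and pericytes, and Jagged to NOTCH2 signalling for its role in the skeleton.

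Levels are counts per 1e6 gene reads (CPM), scaled by library size and by TMM factors, which correct for the share of a library taken by a few abundant genes. Between genes, levels are compared only as the deposited RPKM, which is per length. RPKM carries no TMM scaling, and on that scale the median gene stood 0.48 to 0.55 log2 units lower in skin, relative to the other tissues, than after TMM scaling. Libraries held 78757872 to 116759235 reads on genes, so the counts behind each member ran from 5 reads (Dll4 in skin 3) to 36726 reads (Notch3 in thymus 2). The 12 mesenchymal markers were all at 1 CPM or more in each tissue, and the growth factor receptor Pdgfra averaged 1160 ± 37.7 CPM (thymus), 737 ± 59 (bone) and 776 ± 87.7 (skin; SD, n = 3). The most abundant of them, the collagens Col3a1 and Col1a1, were highest in skin, at means of 154000 and 97200 CPM. Markers of other cells differed between tissues. Those of myeloid cells, led by S100a9 and Ngp, summed to 3120 to 4290 CPM in bone and 24.5 to 106 CPM in the 6 other libraries. Thymocyte markers, led by Rag1 and Cd4, summed to 74.9 to 213 CPM in thymus, and were lower in bone (31.9 to 48.1) and skin (6.2 to 9.12). In bone Rag1 alone stood at 21 to 32.2 CPM, and 5 of the 13 markers averaged 1 CPM or more, against 12 in thymus. Erythroid and megakaryocyte markers, led by Itga2b and Ppbp, summed to at most 85.2 CPM in any library, and Schwann cell and melanocyte markers, led by Mitf and Mbp, to at most 126 CPM. The skeletal muscle list reached 838 CPM in thymus, nearly all of it from Des, which is also a mural marker, while 6 of its 9 genes had 0 reads there. In these bulk samples, fewer cells of a type and less RNA per cell cannot be told apart.

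Thymus libraries differed from those of both other tissues in which Notch receptor had the most RNA per length. Notch3 was the highest of the 4 receptors in thymus, while Notch2 was the highest in bone and skin. Of the summed receptor RPKM, Notch3 made up 56% ± 4.48 in thymus, 23.3% ± 3.69 in bone and 5.84% ± 1.34 in skin (SD, n = 3). Notch2 made up 85.7% ± 5.75 in skin, 60.8% ± 5.17 in bone and 25.3% ± 3.54 in thymus. The ratio of Notch3 to Notch2 RPKM ran from 1.86 to 2.85 in the thymus libraries, 0.285 to 0.446 in bone and 0.0476 to 0.0803 in skin, so the tissues did not overlap. The shares are a description and were not tested.

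**Figure D1:**
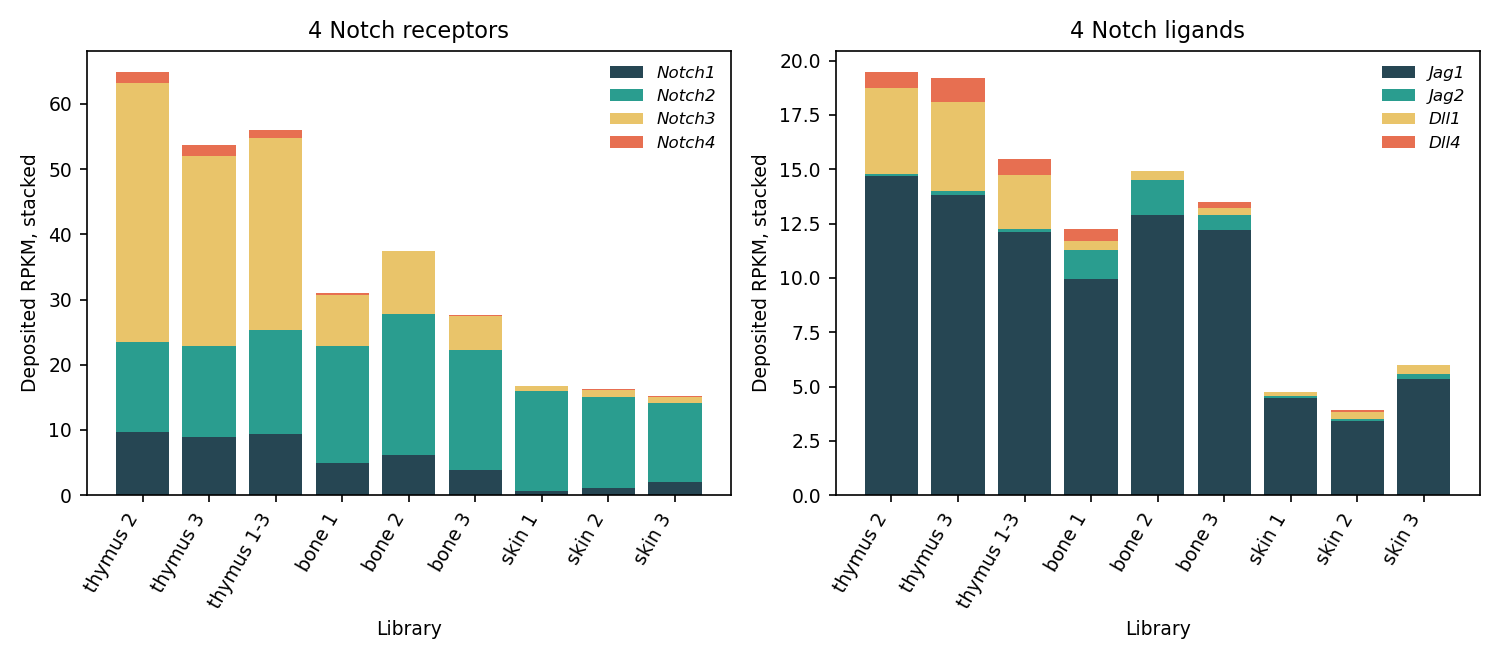
Deposited RPKM of the 4 Notch receptors (left) and the 4 Notch ligands (right), stacked for each of the 9 libraries, with 1 colour per gene. Notch3 is the largest receptor segment in the 3 thymus libraries and Notch2 in the 6 others, and Jag1 is the largest ligand segment in all 9.

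Upstream sequences of 3 of the 4 receptors are shown. Notch3 and Notch4 were both highest in thymus and Notch2 was not. The sequence of Notch1, which was also highest in thymus, is not printed. Each stretch is the 250 bases before the RefSeq gene start in GRCm38.p6 (the sequence of mm10), printed 5′ to 3′ on the strand of the gene. Notch2 lies at chr3:98013288-98013537 on the plus strand, Notch3 at chr17:32166891-32167140 on the minus strand and Notch4 at chr17:34564045-34564294 on the plus strand. Capitals mark GGGCGG or its reverse complement, a GC box as bound by SP1-type factors, a motif chosen after the sequences were seen. The unprinted stretch of Notch1 held this motif 5 times.
Notch2: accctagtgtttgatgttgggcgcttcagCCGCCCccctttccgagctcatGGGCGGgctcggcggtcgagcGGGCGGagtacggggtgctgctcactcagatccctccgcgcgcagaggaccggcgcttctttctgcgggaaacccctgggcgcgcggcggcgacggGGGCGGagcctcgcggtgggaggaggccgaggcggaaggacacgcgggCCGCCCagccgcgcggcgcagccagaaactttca
Notch3: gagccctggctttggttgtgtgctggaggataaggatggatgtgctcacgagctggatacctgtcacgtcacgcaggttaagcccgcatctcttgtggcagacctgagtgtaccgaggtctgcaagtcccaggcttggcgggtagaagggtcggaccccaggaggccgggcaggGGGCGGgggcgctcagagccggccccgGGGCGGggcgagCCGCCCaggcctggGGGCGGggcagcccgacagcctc
Notch4: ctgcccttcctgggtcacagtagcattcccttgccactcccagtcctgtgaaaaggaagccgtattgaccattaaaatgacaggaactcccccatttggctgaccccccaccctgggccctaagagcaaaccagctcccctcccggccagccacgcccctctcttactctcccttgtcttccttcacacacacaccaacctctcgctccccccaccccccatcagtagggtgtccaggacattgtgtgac
GGGCGG occurred 5 times in the Notch2 stretch, 4 times in that of Notch3 and not at all in that of Notch4. Of the 8 members with an entry in the RefSeq promoter table, 5 held GGGCGG in these 250 bases (Notch1, Notch2, Notch3, Jag2 and Dll4), against 32.7% of all 32851 promoters in the table. Hey1 and Heyl had no entry. TGGGAA, the core letters of the RBPJ site, was searched on both strands over 300 bases, from 250 before to 50 after the start. It was in none of the 9 entries of these 8 members (Dll1 has 2 starts), against 25.6% of all promoters. No base was counted for both motifs, since TGGGAA was not found. A match is a run of letters and not a measured site, and the absence of a match concerns this window alone.

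Notch3 (chr17:32120893-32166852, minus strand) had the widest range over tissues of the 4 receptors. Its level was 308, 217 and 235 CPM in thymus 2, 3 and 1-3, 62.2, 72.5 and 40.6 CPM in bone 1, 2 and 3, and 7.98, 13.2 and 10.4 CPM in skin 1, 2 and 3. Each tissue occupied its own range, in the order thymus, bone, skin. The thymus mean was 4.34-fold that of bone (log2 fold change 2.12 ± 0.25 SE, edgeR adjusted p = 6.5e-05) and 24.1-fold that of skin (4.59 ± 0.27, edgeR adjusted p = 4.24e-07). Bone was 5.55-fold higher than skin (2.47 ± 0.25, edgeR adjusted p = 1.64e-05). In the thymus libraries the mean RPKM of 32.8 was above that of 92.9% of 23034 genes with a single RPKM value.

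Notch1 (chr2:26457902-26503822, minus strand) had the same order of tissues, at lower levels than Notch3 in thymus and bone. It stood at 90.9, 80.3 and 91.6 CPM in thymus 2, 3 and 1-3, 46.6, 55.9 and 35.8 CPM in bone 1 to 3, and 8.58, 15 and 27.2 CPM in skin 1 to 3. The ranges did not overlap. Thymus was higher than skin (2.37 ± 0.36, edgeR adjusted p = 0.000605), and so was bone (1.45 ± 0.35, edgeR adjusted p = 0.0071). The difference between thymus and bone, 0.93 ± 0.34 with an approximate 95% interval of 0.25 to 1.6, did not pass the threshold (edgeR adjusted p = 0.0652). It passed in 3 kinds of alternative fit, with DESeq2 (adjusted p = 0.0185), with only those 2 tissues in edgeR (adjusted p = 0.00178) and with limma on RPKM. Over all its alternatives the adjusted p ran from 0.00178 to 0.329. Skin 3, the skin library with the most Notch1, also had the most RNA of keratinocyte and hair follicle markers, at 452 CPM summed over 13 genes against 162 CPM in each of skin 1 and 2. The hair follicle keratin Krt71 stood at 76.3, 70.5 and 240 CPM in skin 1, 2 and 3. The part of these cells in the Notch1 level was not tested, and without skin 3 the skin mean of Notch1 was 11.8 CPM.

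Notch2 (chr3:98013538-98150367, plus strand) varied least of all members. It stood at 145, 140 and 171 CPM in thymus 2, 3 and 1-3, 191, 218 and 192 CPM in bone 1 to 3, and 224, 223 and 182 CPM in skin 1 to 3. All thymus libraries were below all others, while bone and skin overlapped. Thymus was lower than bone by a log2 fold change of -0.4 ± 0.14 (edgeR adjusted p = 0.0429), a call that was lost on leaving out thymus 2 or 3 or any bone library (adjusted p 0.0733 to 0.144). Thymus was also lower than skin (-0.46 ± 0.14, edgeR adjusted p = 0.0194), but the direction turned to 0.17 with scaling by library size only, and leaving out thymus 2, thymus 3, skin 1 or skin 2 ended the call (adjusted p 0.0625 to 0.083). Bone against skin was -0.06 ± 0.14, with an approximate 95% interval of -0.33 to 0.21 (edgeR adjusted p = 0.737), and 0.63 with library size only (adjusted p = 0.00222).

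Notch4 (chr17:34564295-34588543, plus strand), a receptor best known in endothelium, was the lowest receptor in every tissue. It stood at 10.6, 9.76 and 7.86 CPM in thymus 2, 3 and 1-3, 2.45, 0.648 and 0.749 CPM in bone 1 to 3, and 0.652, 1.01 and 0.877 CPM in skin 1 to 3. Thymus lay above both tissues, which overlapped each other. The thymus mean was 7.34-fold that of bone (2.88 ± 0.52, edgeR adjusted p = 0.00125; 3.76 without bone 1) and 11.1-fold that of skin (3.47 ± 0.54, edgeR adjusted p = 0.000336). Bone against skin was 0.6 ± 0.5 (edgeR adjusted p = 0.349), and -0.28 without bone 1. Of 17 endothelial markers, 4 were higher and 2 lower in thymus than in bone (median log2 fold change 0.52), and likewise 4 and 2 against skin (0.55). Over all genes the shares higher and lower were 16.5% and 16.1% against bone, and 19.3% and 18.3% against skin. The 17 markers summed to 261 to 377 CPM (thymus), 112 to 133 CPM (bone) and 284 to 384 CPM (skin). Cdh5, the cadherin that defines endothelium, averaged 6.2 ± 2.84 CPM (thymus), 9.98 ± 4.5 (bone) and 6.12 ± 1.52 (skin; SD, n = 3) after the sort against CD31. Of the 2 most abundant genes of the list, Tek stood highest in skin (204 to 280 CPM, against 26.3 to 52.4 in the 6 other libraries) and Plvap highest in thymus (75.6 to 146 CPM, against 14.3 to 30.6). Ecscr, chosen after its values were seen, stood at 88.8 to 115 CPM in thymus and 6.57 to 11.6 elsewhere. The gap junction gene Gja4, on the arterial list, stood at 34.7 to 38.4 CPM in thymus and at most 1.4 elsewhere. The part of endothelial RNA in the Notch4 level was not tested.

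**Figure D2:**
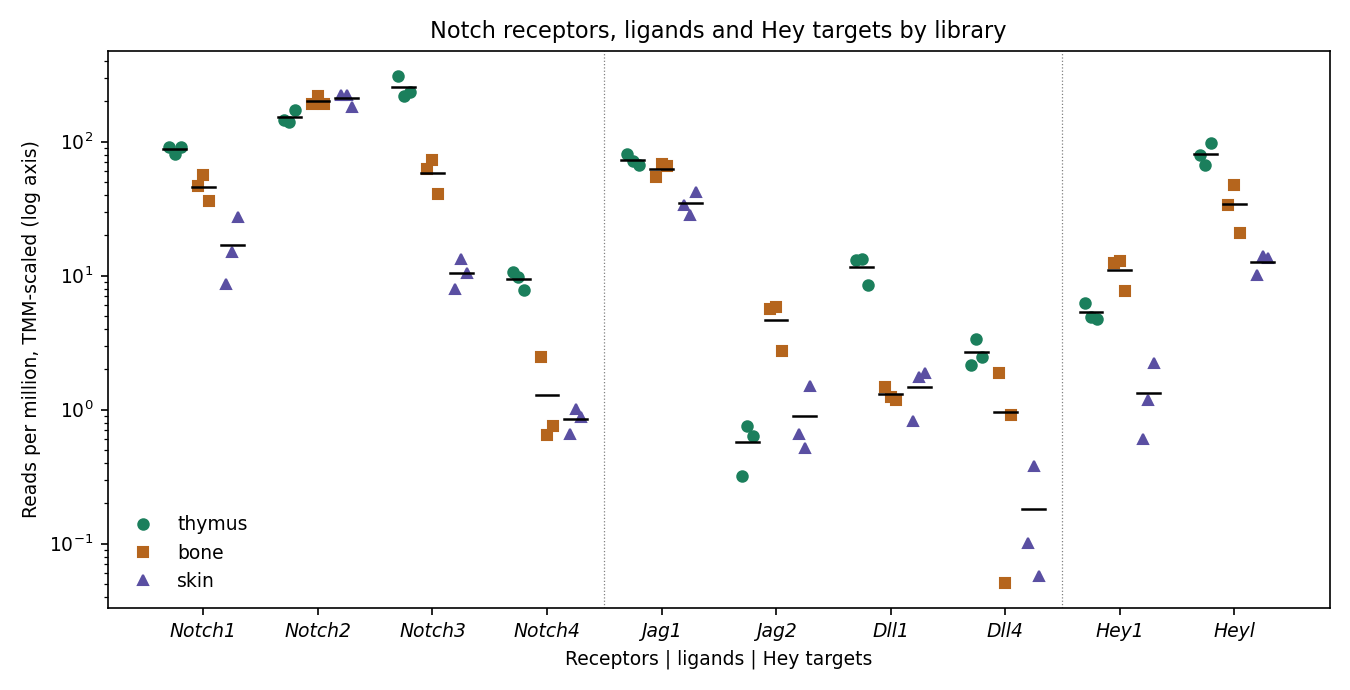
TMM-scaled CPM (log axis) of the 10 genes, with 1 point per library, circles for thymus, squares for bone, triangles for skin, and a line at each tissue mean. Notch3 spans 7.98 to 308 CPM with no overlap between tissues, while Notch2 stays between 140 and 224 CPM.

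Among the ligands, Jag1 was the most abundant per length in all 9 libraries. It made up 75.2% ± 3.09 of the summed ligand RPKM in thymus, 86% ± 4.49 in bone and 89.9% ± 3.16 in skin (SD, n = 3). The second ligand differed by tissue: Dll1 held 19.2% ± 2.77 in thymus and 6.2% ± 2.5 in skin, while Jag2 held 8.88% ± 3.27 in bone.

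Jag1 (chr2:137081451-137116520, minus strand) stood at 80.3, 71.6 and 67.1 CPM in thymus 2, 3 and 1-3, 54, 67.5 and 65.9 CPM in bone 1 to 3, and 33.8, 28.3 and 41.8 CPM in skin 1 to 3. Thymus and bone overlapped, and skin lay below both. The thymus mean was 2.11-fold that of skin (1.07 ± 0.16, edgeR adjusted p = 0.000275) and the bone mean 1.8-fold that of skin (0.85 ± 0.16, edgeR adjusted p = 0.00107). Thymus against bone was 0.22 ± 0.16, with an approximate 95% interval of -0.09 to 0.54 (edgeR adjusted p = 0.314).

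Jag2 (chr12:112908590-112929495, minus strand) was the ligand set apart in bone. It stood at 5.59, 5.78 and 2.72 CPM in bone 1 to 3, 0.652, 0.513 and 1.51 CPM in skin 1 to 3, and 0.319, 0.753 and 0.637 CPM in thymus 2, 3 and 1-3. Bone lay above both tissues, and thymus and skin overlapped. Bone was 8.24-fold higher than thymus (thymus minus bone -3.04 ± 0.63, edgeR adjusted p = 0.00302) and 5.26-fold higher than skin (2.39 ± 0.61, edgeR adjusted p = 0.00716; 3.01 without skin 3). Thymus against skin was -0.65 ± 0.59 (edgeR adjusted p = 0.429), and -0.03 without skin 3. RNA of blood cells moved with bone too: besides the myeloid list, the 9 B cell markers, led by Ebf1 and Blnk, summed to 206 to 248 CPM in bone and 70.2 to 134 CPM in the 6 other libraries. Of all genes 16.1% were higher in bone than in thymus, and so were all 14 myeloid markers tested. Their part in the Jag2 level was not tested.

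Dll1 (chr17:15367354-15375823, minus strand), a Delta-like ligand, was set apart in thymus. It stood at 13, 13.3 and 8.51 CPM in thymus 2, 3 and 1-3, 1.48, 1.25 and 1.18 CPM in bone 1 to 3, and 0.821, 1.76 and 1.86 CPM in skin 1 to 3. Thymus lay above both tissues, which overlapped. The thymus mean was 8.89-fold that of bone (3.15 ± 0.39, edgeR adjusted p = 7.44e-05) and 7.85-fold that of skin (2.97 ± 0.39, edgeR adjusted p = 9.03e-05). Bone against skin was -0.18 ± 0.36, with an approximate 95% interval of -0.89 to 0.53 (edgeR adjusted p = 0.714), and turned to 0.52 with scaling by library size only.

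Dll4 (chr2:119325784-119335666, plus strand), the thymic epithelial ligand for T cell commitment, was the scarcest member in skin and uneven within bone. It stood at 2.16, 3.36 and 2.48 CPM in thymus 2, 3 and 1-3, from 253 to 402 reads. In bone 1, 2 and 3 it stood at 1.89, 0.0512 and 0.911 CPM, the second of these from 6 reads. In skin 1, 2 and 3 it stood at 0.101, 0.381 and 0.0577 CPM, from 5 to 26 reads. All thymus libraries lay above all others. Thymus was higher than skin (3.9 ± 1.17, edgeR adjusted p = 0.0207; 5.05 without skin 2), but leaving out skin 1, skin 3 or thymus 3 ended the call (adjusted p 0.0529 to 0.0648). Thymus against bone was 1.49 ± 1.05 (edgeR adjusted p = 0.311; 2.48 without bone 1). Bone against skin was 2.41 ± 1.11 (edgeR adjusted p = 0.094), reached 2.97 with adjusted p = 0.018 without bone 2, and was 1.42 without bone 1 and 3.56 without skin 2.

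Dll4 and Notch4 were both highest in bone 1 among the bone libraries. Of the endothelial markers with reads in bone, 5 of 17 were highest in bone 1, and of the arterial ones 4 of 7. Chosen after their values were seen, the arterial gap junction gene Gja5 stood at 4.14, 0 and 0.26 CPM in bone 1, 2 and 3 and Cdh5 at 14.9, 6.14 and 8.87 CPM, while Robo4 stood at 0.0485, 2.87 and 3.28 CPM and Erg at 11.8, 17 and 18.3 CPM. Sox17, another arterial marker, had 0 reads in bone. The sum of the 8 arterial markers was 81.5 to 97 CPM (thymus), 88 to 115 (bone) and 60.8 to 82.3 (skin), and its most abundant genes were the ephrin Efnb2, lowest in thymus (16.4 to 29.3 CPM, against 46.5 to 88.9 elsewhere), and Vegfc, highest there (22.8 to 25.7 CPM, against 6.5 to 17.9). Of 10 thymic epithelial markers tested, 3 were higher and 2 lower in thymus than in bone, and 4 higher and 1 lower than in skin. Over all genes the shares higher and lower were 16.5% and 16.1% against bone, and 19.3% and 18.3% against skin. Trp63 (8.25 to 14.3 CPM in thymus) and Krt8 (1.9 to 4.76) stood at most at 10 and 0.138 CPM elsewhere, and Aire, at 0.255 to 0.94 CPM in thymus, had 0 reads in bone and skin. Pax1 was lowest in thymus (0.042 to 0.52 CPM, against 5.96 to 19.9), and Foxn1, which defines thymic epithelium, stood at no more than 0.196 CPM there. The 11 genes summed to 21.8 to 25 CPM (thymus), 22.2 to 29.5 (bone) and 25.1 to 39.7 (skin). The part of arterial and epithelial cells in the Dll4 and Notch4 levels was not tested.

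The target genes Hey1 and Heyl encode related basic helix-loop-helix repressors, and their orders over tissues differed. Heyl (chr4:123233556-123249870, plus strand) stood at 78.7, 66.7 and 97.8 CPM in thymus 2, 3 and 1-3, 33.6, 47.5 and 20.8 CPM in bone 1 to 3, and 10.1, 13.9 and 13.6 CPM in skin 1 to 3. The tissues did not overlap and came in the order thymus, bone, skin, as for Notch3 and Notch1. The thymus mean was 2.39-fold that of bone (1.25 ± 0.27, edgeR adjusted p = 0.00448) and 6.47-fold that of skin (2.69 ± 0.28, edgeR adjusted p = 2.97e-05), and bone was 2.71-fold higher than skin (1.44 ± 0.27, edgeR adjusted p = 0.00133).

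Hey1 (chr3:8663359-8667038, minus strand) stood at 12.4, 12.9 and 7.65 CPM in bone 1 to 3, 6.23, 4.94 and 4.73 CPM in thymus 2, 3 and 1-3, and 0.607, 1.17 and 2.23 CPM in skin 1 to 3. The ranges did not overlap and put bone first. Bone was 8.22-fold higher than skin (3.04 ± 0.45, edgeR adjusted p = 0.000179; 3.63 without skin 3), and thymus 3.96-fold higher than skin (1.99 ± 0.43, edgeR adjusted p = 0.00329; 2.58 without skin 3). Thymus against bone was -1.05 ± 0.41 with an approximate 95% interval of -1.86 to -0.24 and missed the threshold (edgeR adjusted p = 0.0719). DESeq2 put it past the threshold (adjusted p = 0.0434), as did edgeR on those 2 tissues alone (adjusted p = 0.0127) and limma on RPKM, with a range of 0.00846 to 0.192 over all its alternatives.

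The balance of both repressors differed by tissue, as a description with no test. The ratio of Heyl to Hey1 RPKM was 1.33 to 1.79 in bone, 6.19 to 9.97 in thymus and 2.96 to 8.21 in skin, so bone stood apart and thymus and skin overlapped. Set against the receptor, the ratio of Heyl to Notch3 RPKM was lowest in thymus, at 0.44 to 0.714, and ran from 0.873 to 1.13 in bone and from 1.8 to 2.21 in skin. In each of the 3 comparisons the fold of Heyl was smaller than that of Notch3, a difference that was not tested.

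**Figure D3:**
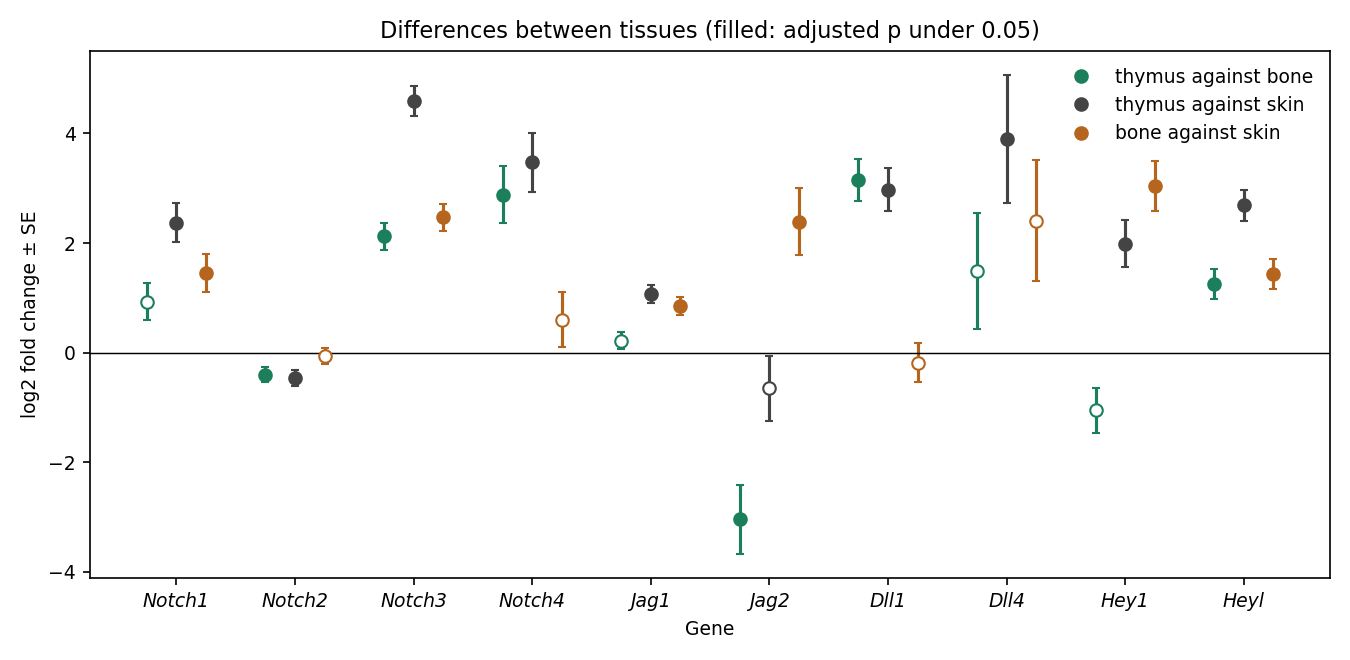
log2 fold change ± SE of the 10 genes for thymus against bone, thymus against skin and bone against skin, each as first tissue minus second, with filled points where the edgeR adjusted p was under 0.05. In thymus against skin all filled points except that of Notch2 lie above 0, and Notch2, Jag2 and Hey1 lie below 0 in thymus against bone.

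Over the 10 genes, 6 passed the test between thymus and bone, where 32.6% of all genes tested passed. Higher in thymus were 4 (Notch3, Notch4, Dll1 and Heyl; 16.5% of all genes) and lower were 2 (Notch2 and Jag2; 16.1%). The libraries of these tissues did not overlap for 9 of the 10, against 49.4% of all genes. Between thymus and skin 9 passed (37.6% of all genes), with 8 higher in thymus (19.3%) and Notch2 lower (18.3%), and 9 did not overlap (51.9%). With library size only, Notch2 dropped out and the split was 8 higher and 0 lower. Over all genes that scaling gave 7219 higher and 1239 lower in thymus, beside 3013 and 2865 with TMM. Between bone and skin 6 passed (47.1% of all genes), all of them higher in bone (23.7%) and none lower (23.4%), and the same number did not overlap (58.3%). The last comparison rose to 9 passing, all higher in bone, with library size only. Over all genes that scaling gave 7474 higher and 1391 lower in bone, beside 3702 and 3661 with TMM. The median log2 fold change of the members was 1.09 for thymus against bone, 2.53 for thymus against skin and 1.44 for bone against skin, beside 0.02, 0.03 and 0.03 over all genes tested. Each tissue enters 2 of the 3 comparisons, so their counts are not independent.

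The rest of the pathway moved in both directions. Of 74 further pathway genes in 8 lists, 73 were counted and 67 tested. Between thymus and bone 15 were higher and 9 lower in thymus, between thymus and skin 18 and 15, and between bone and skin 16 were higher and 16 lower in bone. These were 35.8%, 49.3% and 47.8% of those tested, beside 32.6%, 37.6% and 47.1% of all genes. The median absolute log2 fold changes of 0.43, 0.55 and 0.56 lay below the 0.55, 0.63 and 0.76 of all genes. With scaling by library size only, which raised the median log2 fold change of all genes against skin by 0.63 for thymus and 0.69 for bone, the splits against skin became 34 higher and 5 lower for thymus and 36 and 6 for bone. Over all genes that scaling moved the share of calls that were higher from 51.3% to 85.4% for thymus and from 50.3% to 84.3% for bone.

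Dtx4 and Neurl1b gave the largest passing differences in favour of thymus against bone among these genes. Of 11 genes of receptor turnover, 4 were higher and 1 lower in thymus than in bone, and 4 higher and 3 lower than in skin. Dtx4, a Deltex ubiquitin ligase that acts on Notch receptors, stood at 225, 203 and 200 CPM in thymus 2, 3 and 1-3, 26.2 to 32.7 CPM in bone and 69.4 to 87.4 CPM in skin. No library of one tissue overlapped another (thymus minus bone 2.85 ± 0.15, edgeR adjusted p = 1.27e-07; thymus minus skin 1.47 ± 0.14, edgeR adjusted p = 8.32e-06; bone minus skin -1.39 ± 0.14, edgeR adjusted p = 1.08e-05). Dtx3l was also higher in thymus than in bone (1.05 ± 0.25), while Numbl, a relative of the Notch antagonist Numb, was lower in thymus than in skin (-1.22 ± 0.15) and Dtx2 lower in bone than in skin (-1.51 ± 0.21). Between bone and skin 2 genes of this list were higher and 5 lower in bone. For thymus against bone, thymus against skin and bone against skin, 45.5%, 63.6% and 63.6% of the list passed. The shares over all genes were 32.6%, 37.6% and 47.1%. Nrarp, a feedback inhibitor and Notch target, did not pass in any comparison, at 0.505 to 7.52 CPM in bone, 1.28 to 5.29 in skin and 0.961 to 1.84 in thymus.

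The list of ligand ubiquitin ligases held Mib and Neurl genes, not all of which are known to act on Notch ligands. Of these, Neurl1b and Neurl3 differed in opposite directions between thymus and the other tissues. Of 6 genes, 2 were higher and 1 lower in thymus than in bone, and likewise in thymus against skin. Between bone and skin 2 were higher in bone and 0 in skin. Those passing were 50%, 50% and 33.3% of the list in that order, beside 32.6%, 37.6% and 47.1% of all genes. Neurl1b stood at 36.7, 30.8 and 30.5 CPM in thymus 2, 3 and 1-3, 4.84 to 9.59 CPM in bone and 1.06 to 4.53 CPM in skin (thymus minus bone 2.31 ± 0.45, edgeR adjusted p = 0.00309; thymus minus skin 3.6 ± 0.48, edgeR adjusted p = 0.00023, and 4.21 without skin 1). Its excess in bone over skin (1.29 ± 0.45, edgeR adjusted p = 0.0371) was lost without bone 2 (adjusted p = 0.138) or skin 2 (adjusted p = 0.11), and was 1.9 without skin 1. Neurl3 went the other way, at 0, 1.39 and 0.471 CPM in thymus 2, 3 and 1-3 against 22.1 to 26.8 CPM in bone and 10.1 to 17.1 CPM in skin. Its fitted difference was -5.26 ± 0.99 from bone (-6.7 without thymus 3 and -4.67 without thymus 2) and -4.4 ± 0.95 from skin (-5.84 and -3.81). Mib1 was higher in bone than in skin (1.27 ± 0.19).

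Glycosyltransferases include the fringe enzymes, which tune the ligands a receptor answers to. Of 7 genes, 3 were higher in thymus than in bone and 4 higher in thymus than in skin. Between bone and skin 3 were higher in bone and 1 in skin. Those passing were 42.9%, 57.1% and 57.1% of the list in that order, beside 32.6%, 37.6% and 47.1% of all genes. Lfng, the Lunatic fringe enzyme that favours Delta-like ligands, stood at 6.7, 8.15 and 11.6 CPM in thymus 2, 3 and 1-3, 9.17, 12.7 and 8.05 CPM in bone 1 to 3, and 1.69 to 1.92 CPM in skin (thymus minus skin 2.31 ± 0.3, bone minus skin 2.48 ± 0.3). Ogt, which adds GlcNAc to many proteins inside the cell, averaged 21.5 ± 2.03 CPM in skin, against 149 ± 31.4 in thymus and 122 ± 19 in bone (SD, n = 3). Rfng (0.77 ± 0.21) and Poglut1 (0.78 ± 0.18) were higher in thymus than in bone, the first not without bone 1 (adjusted p = 0.0641) or thymus 1-3 (adjusted p = 0.0861). Receptor-processing enzymes differed little: of 10 genes, 1 was higher in thymus than in bone, and 3 were lower in thymus than in skin. Aph1a, a gamma-secretase subunit, was -0.57 ± 0.13 in thymus against skin but 0.07 with library size only, and -0.65 ± 0.13 in bone against skin but 0.04 with library size only. Aph1b was -0.65 ± 0.19 in thymus against skin, a call that scaling by library size (-0.01) or leaving out skin 1, skin 2, thymus 3 or thymus 1-3 ended. Between bone and skin 1 processing gene was higher and 3 were lower. Of the processing list 10%, 30% and 40% passed, for thymus against bone, thymus against skin and bone against skin.

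Inside the nucleus, Rbpj and the coactivator Maml2 differed in opposite directions. Of 9 genes of the nuclear complex, 1 was higher and 2 lower in thymus than in bone, and 3 higher and 2 lower in thymus than in skin. Between bone and skin 2 were higher in bone and 1 in skin. Those passing were 33.3%, 55.6% and 33.3% of the list in that order, beside 32.6%, 37.6% and 47.1% of all genes. Rbpj stood at 58.4, 63.8 and 68.7 CPM in thymus 2, 3 and 1-3, 102, 77.8 and 94.7 CPM in bone 1 to 3, and 114, 106 and 131 CPM in skin 1 to 3. It was lower in thymus than in bone (-0.52 ± 0.14, edgeR adjusted p = 0.0131), a call lost without bone 1 (adjusted p = 0.0597) or thymus 2 (adjusted p = 0.0584). Against skin it was -0.88 ± 0.14 (edgeR adjusted p = 0.000403), and -0.26 with library size only (adjusted p = 0.138). Maml2 stood at 34.3 to 43.4 CPM in thymus, against 13.4 to 20.5 in bone and 15.1 to 18.6 in skin (thymus minus bone 1.17 ± 0.18, edgeR adjusted p = 0.000455; thymus minus skin 1.2 ± 0.18, edgeR adjusted p = 0.000318). Maml1 was lower in bone than in skin (-0.72 ± 0.12, and -0.03 with library size only) and Maml3 higher (0.86 ± 0.23).

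Of 12 corepressors, 3 were higher and 1 lower in thymus than in bone, and 4 higher and 2 lower in thymus than in skin. Between bone and skin 4 were higher in bone and 3 in skin. Those passing were 33.3%, 50% and 58.3% of the list in that order, beside 32.6%, 37.6% and 47.1% of all genes. Tle1, a Groucho corepressor that Hes proteins recruit, stood at 51.8 to 74.3 CPM in thymus. It stood at 20.8 to 27.2 CPM in bone and 26.1 to 28 in skin (thymus minus bone 1.42 ± 0.17, thymus minus skin 1.19 ± 0.16). Its relative Tle2 was highest in bone, at 19.1 to 33.7 CPM against 3.58 to 6.57 in thymus (thymus minus bone -2.42 ± 0.3) and 5.98 to 10.5 in skin (bone minus skin 1.72 ± 0.3). Tle4 was higher in thymus than in skin (1.18 ± 0.2).

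Of 10 further genes, namely Hes and Hey genes, Helt, Bhlhe40 and Bhlhe41, 6 were tested. Lower in thymus than in bone were 2 (Hes1 and Bhlhe40), and 1 was higher in thymus than in skin (Bhlhe41). Higher in bone than in skin were 2 (Bhlhe40 and Bhlhe41). These are 33.3%, 16.7% and 33.3% of those tested, beside 32.6%, 37.6% and 47.1% of all genes. Bhlhe40 and Bhlhe41 are neither Hes nor Hey genes, so Hes1 was the only Hes or Hey gene of this list to pass. Hes1, a classical Notch target, stood at 48, 36.1 and 36 CPM in thymus 2, 3 and 1-3, 63.2, 62.3 and 60.9 CPM in bone 1 to 3, and 45.2, 48 and 58.9 CPM in skin 1 to 3. Thymus lay below bone and overlapped skin (thymus minus bone -0.63 ± 0.15, edgeR adjusted p = 0.00713; thymus minus skin -0.34 ± 0.15, edgeR adjusted p = 0.0997). Bhlhe40 was lower in thymus than in bone (-0.79 ± 0.18) and higher in bone than in skin (0.73 ± 0.18). Bhlhe41 was higher in bone than in skin (1.47 ± 0.32) and in thymus than in skin (1.04 ± 0.32, lost without skin 2 or thymus 1-3). Hey2, the third Hey gene, stood at 0 to 1.05 CPM in the 9 libraries.

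The other ligands and ligand-like proteins went against thymus where they differed from skin. Of 6 tested, 0 were higher and 4 lower in thymus than in skin, and 1 was higher and 2 lower in thymus than in bone. Between bone and skin 0 were higher in bone and 3 in skin. Those passing were 66.7%, 50% and 50% of the 6 in that order, beside 37.6%, 32.6% and 47.1% of all genes. Dlk1, a Delta-like protein that restrains adipocyte formation, stood at 53.1, 93.8 and 17.3 CPM in skin 1 to 3 against 2.08 to 3.89 in thymus (-4.18 ± 0.77, and -3.54 without skin 2) and 1.79 to 9.34 in bone (-3.59 ± 0.75; -2.96 without skin 2 and -4.68 without bone 2). Mfap2, a microfibril protein, averaged 979 ± 79.2 CPM in skin, 87.1 ± 18.1 in bone and 108 ± 70.4 in thymus (thymus minus skin -3.18 ± 0.41, and -3.86 without thymus 1-3; bone minus skin -3.49 ± 0.42). Nov, a secreted CCN protein, stood at 287 to 321 CPM in bone, 165 to 258 in skin and 31.4 to 62.4 in thymus (thymus minus bone -2.62 ± 0.25). Mfap5 was higher in thymus than in bone (0.72 ± 0.24, edgeR adjusted p = 0.0393), a call lost without thymus 3, thymus 1-3 or any bone library.

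**Figure D4:**
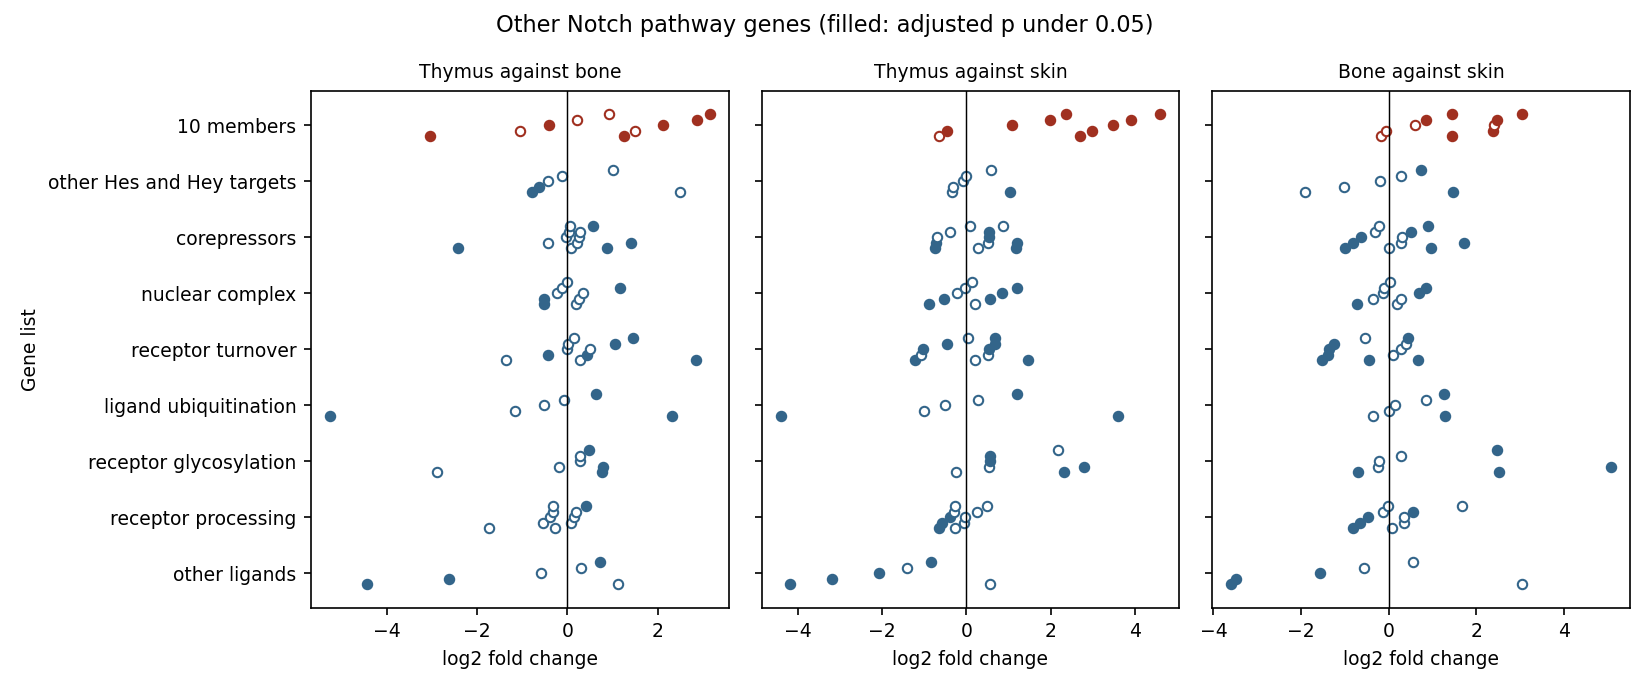
log2 fold change of the 10 genes (red) and of the tested genes of 8 further pathway lists (blue), 1 point per gene and 1 panel per comparison, each as first tissue minus second, with filled points where the edgeR adjusted p was under 0.05. The 10 genes lie mostly to the right of 0 in thymus against skin (8 of 10 filled and higher), while the further lists lie on both sides (18 higher and 15 lower).

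Pericytes and smooth muscle cells are known for strong Notch3, and the lineage antibodies of the sort are not directed at them. The 15 mural markers summed to 1880 to 2600 CPM (thymus), 553 to 579 CPM (bone) and 476 to 572 CPM (skin), so they were highest where Notch3 was, while bone and skin overlapped. Of the 15, 9 were higher and 2 lower in thymus than in bone, and 11 higher and 0 lower in thymus than in skin. In bone 7 of the list exceeded skin while 3 fell short of it. Over all genes the shares higher and lower were 16.5% and 16.1%, 19.3% and 18.3%, and 23.7% and 23.4% in the same order. Des, the muscle filament desmin, averaged 691 ± 140 CPM (thymus), 12.6 ± 4.3 (bone) and 11.7 ± 2.31 (skin; SD, n = 3), and Mylk, the kinase that activates smooth muscle myosin, 565 ± 104, 46.2 ± 20 and 15.5 ± 3.96 CPM in the same order. The smooth muscle myosin Myh11 stood at 36.7 to 38.1 CPM in thymus and at most 6.16 elsewhere. Pericyte genes of the list went both ways. The potassium channel subunit Abcc9 (337 to 424 CPM), Ndufa4l2 (80.7 to 166 CPM) and Mcam (24.7 to 30.4 CPM) were highest in thymus, where no library overlapped those of the other tissues. Rgs5 was highest in bone (64.1 to 78.4 CPM, against 10.1 to 18.5 in thymus and 0.45 to 1.05 in skin). So was Cspg4 (189 to 224 CPM, against 21.5 to 27.5 in thymus and 10.4 to 18.4 in skin). Kcnj8 was lowest in bone (4.57 to 6.61 CPM), against 45.1 to 66.6 in thymus and 57.7 to 106 in skin, where Notch3 was lowest. The part of mural cells in the Notch3 level was not tested.

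**Figure D5:**
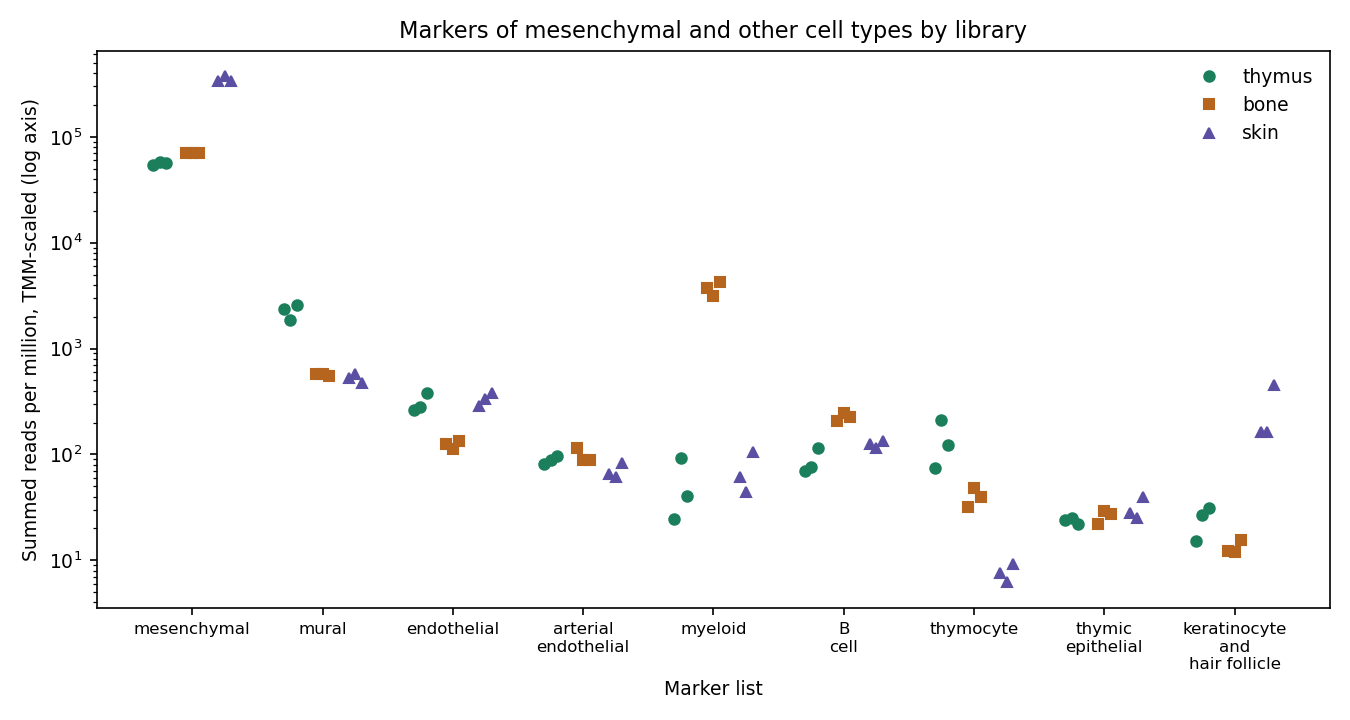
Summed TMM-scaled CPM (log axis) of 9 marker lists, 1 point per library, circles for thymus, squares for bone and triangles for skin. Mural markers are highest in the 3 thymus libraries (1880 to 2600 CPM), myeloid markers in the 3 bone libraries (3120 to 4290 CPM) and keratinocyte markers in skin, with skin 3 at 452 CPM.

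Likeness of pattern was measured as the root mean square difference of centred log2 CPM over the 9 libraries, so 0 would be an identical pattern. For Notch3 the 3 nearest genes were the integrin Itga8 (0.24), the transcription factor Irf8 (0.28) and the prostacyclin receptor Ptgir (0.28). For Notch1 they were Osmr (0.28), Cers4 and Pla2g4c, and for Heyl Dock6 (0.26), Cers4 and Rhbdf2. Among the members themselves, Notch1 and Heyl were nearest to each other (0.37), as were Notch4 and Dll1 (0.51), and Notch2 and Jag1 (0.68). Other genes were nearer in each case: 14 to Notch1 and 20 to Heyl, 8 to Notch4 and 28 to Dll1, and 8277 to Notch2 and 6289 to Jag1. Dll1 was nearest to Adcy5 (0.26), Mcoln2 and the cyclin Ccnd1, and Notch4 to Tmem51 (0.39), Pnmal2 and Adcy5. Jag2 was nearest to Pstpip1 (0.42), Tmem8 and Nbeal2, and Hey1 to the peptidase Mme (0.39), Pqlc3 and Ssh3. Jag1 was nearest to Chd6 (0.13), Ubxn7 and Tmem106b, and Notch2 to Med24 (0.07), Rbm33 and Crtc1. Dll4 had no near neighbour, its closest being Kynu (1.02), Ache and Mapk8ip2. All points share the same 9 libraries, and the measure carries no test.

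In GENCODE M21, exons of 5 members overlap those of another gene: Notch1 by 1482 bases (0610009E02Rik and Gm13568), Dll1 by 867 (A930024N18Rik), Notch2 by 541 (Gm42820, on the same strand), Notch3 by 488 (Gm17276) and Dll4 by 214 (Gm14207). All but Gm42820 lie on the opposite strand. No source used here gives the strand setting of the counting, so reads of such partners may be counted with, or removed from, these 5 genes. Notch4, Jag1, Jag2, Hey1 and Heyl have no exonic overlap.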

How the data were processed

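RNA-seq of 9 libraries was used as deposited. Per the file headers and values, the authors deposited whole-number read counts per gene symbol, and RPKM per gene with mm10 coordinates; a deposited signal column, the sum of read bases per gene, was not used for any result. CASAVA 1.8.2, HTSeq 0.5.4 and the build mm10 are listed in the submitters' processing notes. The sources used here give no aligner, annotation or strand setting. Summary lines (5.05 to 14.8% of reads) were left out.

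Counts were tested with edgeR 4.0.16 (R 4.3.3; robust quasi-likelihood test, TMM, filterByExpr by tissue, 1 fit of all 9 libraries with a mean per tissue, Benjamini-Hochberg adjustment over 15635 genes, threshold 0.05). SEs were taken from the fold change and the F statistic and are approximate, as are the 95% intervals from them. The tests were also run on simulated data, in which few genes differed and the abundant genes of skin were not modelled. That run does not address the scaling of comparisons against skin. Replicate libraries were no copies of each other (chi-square per degree of freedom of 92.9 or more).

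The members and lists were chosen with earlier results of these data known. Named were all members, up to 2 passing genes per pathway list and comparison with the largest change at a mean of 5 CPM or more in the higher tissue, the 2 most abundant genes of each marker list and the 3 genes most like each member (log2 CPM with a prior count of 0.5). Other genes printed with their values, among them Hes1, Nrarp, Hey2, Gja4, Gja5, Ecscr, Cdh5, Sox17, Foxn1, Myh11, Rgs5, Cspg4, Kcnj8, Abcc9, Ndufa4l2, Mcam, Robo4, Erg, Krt8, Aire and Pdgfra, were chosen for their role or after their values were seen. Some genes that the rule names are not reported here. Alternatives were RLE, upper quartile and library-size scaling, 2 other filters, DESeq2 1.42.0, limma 3.58.1 on log2 of RPKM plus 1 or 0.1, fits of 2 tissues, a replicate block and leaving out each library. Gene overlaps come from GENCODE M21, and promoters from RefSeq in GRCm38.p6, where 8 of the 10 members matched.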

Additional observations from a re-analysis of the deposited data

How the results depend on the processing

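Over 17 alternatives, 5 to 9 members passed between thymus and bone (6 in the edgeR fit described), 7 to 9 between thymus and skin (9) and 6 to 9 between bone and skin (6). Over all genes, those higher in the first tissue ran from 1663 to 2855, 2333 to 7219 and 2985 to 7474 in that order. Those lower ran from 1736 to 3022, 1173 to 3216 and 1391 to 3799. Leaving out 1 library gave 5 to 6, 7 to 9 and 6 to 7 members, and 16 to 20, 19 to 33 and 26 to 31 pathway genes (24, 33 and 32). The 19 came without skin 2. Calls over all genes fell too. Those higher were 1977 to 2199 (2584 with all libraries), 2333 to 2873 (3013) and 2985 to 3519 (3702). Those lower were 2008 to 2199 (2517), 2249 to 2842 (2865) and 3018 to 3367 (3661). The filtered RPKM fits tested 8 of the 10 members.

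Directions turned only in comparisons against skin. Notch2 in thymus against skin was 0.17 with library size only, and 0.08, 0.09 and 0.08 with limma on RPKM plus 1, plus 0.1 and plus 1 with no filter. Notch2 in bone against skin was 0.63, 0.46, 0.49 and 0.46 in that order, and Dll1 in bone against skin 0.52, 0.1, 0.35 and 0.1. With 1 library left out, Notch4 in bone against skin ran from -0.28 (without bone 1) to 0.92, and Dll1 from -0.47 to 0.02 (without skin 3). Those scalings moved the median gene in the same direction.

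Shares of receptor reads in place of RPKM were, in thymus, 17.5% for Notch1, 30.4% for Notch2, 50.2% for Notch3 and 1.88% for Notch4, with Notch3 at 18.8% in bone and 4.42% in skin and Notch4 at 0.357% in skin, since reads are not divided by gene length.

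Deviations of same-numbered libraries of different tissues correlated at -0.14 to 0.1, and those of differently numbered ones at -0.14 to 0.12. Such values cannot show whether equal numbers share animals, since a shared animal need not leave a common deviation. With the replicate number as a block, 5, 8 and 6 members passed, Notch2 (adjusted p = 0.0517, thymus against bone) and Dll4 (adjusted p = 0.0788, thymus against skin) dropping out, and 12, 23 and 31 pathway genes; over all genes tested, 21.7% passed between thymus and bone under the block. No other library holds the label 1-3, so thymus 1-3 formed a block by itself and added nothing to the comparisons of thymus. Under the block these rest on thymus 2 and thymus 3, and the block terms also use up degrees of freedom. This fit thus cannot show whether equal numbers are pairs. How much of the lost calls came from each of these was not tested. Low read counts limit Dll4 most, at 5 to 26 reads per skin library.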
